A study of Mus musculus with 2 samples.

Results

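The Hsd17b genes carry the symbol of the 17-beta-hydroxysteroid dehydrogenases, and 10 of them (Hsd17b1, Hsd17b2, Hsd17b3, Hsd17b4, Hsd17b6, Hsd17b10, Hsd17b11, Hsd17b12, Hsd17b13 and Hsd17b14) were taken by symbol from the 55536 annotated genes of an RNA-seq study of the mouse adrenal gland. All 10 were found, each under 1 gene identifier, with 40 annotated transcripts in all. The study has 1 group of 2 libraries, each made from 300 ng of total RNA of adrenal gland from female mice of the hybrid strain B6CASTF1/J, aged 2 months. The labels name no treatment and no engineered allele. The libraries are called animal 1 and animal 2 after their biological replicate numbers, although some label fields give both the same animal number and others give different numbers. If they share an animal, the spread between them is not a spread between animals. With 1 group there was no condition to compare, so levels, transcripts and the spread between the libraries are described with no test.

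Classical family members interconvert a ketone and a hydroxyl group on the steroid ring, which turns weak oestrogens and androgens into strong ones or back. Other members act mainly on fatty acyl-CoA esters in the peroxisome, the endoplasmic reticulum or the mitochondrion, or sit on the surface of lipid droplets. The adrenal cortex turns cholesterol into corticosterone and aldosterone, and the adult mouse cortex is known to make little androgen, with little of the 17-hydroxylase Cyp17a1.

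Annotated genes received 34203664 expected counts in animal 1 and 35959484 in animal 2. A count of 0 allows up to 3 counts, a CPM of 0.0877 in animal 1 and 0.0834 in animal 2. Markers of the labelled tissue were abundant, since 5 cortex genes summed to 12091 and 13546 TPM (a relative number of transcripts, corrected for length) in animals 1 and 2, and 5 medulla genes to 1814 and 1481 TPM. Markers of other tissues were also found. Adipocyte genes summed to 1747 and 1969 TPM, brown adipocyte genes to 565 and 1148 TPM, and erythroid genes to 1133 and 1994 TPM. Liver genes summed to 195 and 123 TPM, and kidney tubule genes to 19.9 and 0.18 TPM. In bulk tissue, fewer cells of a type and less RNA per cell cannot be told apart.

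The family divided into 4 genes above 20 TPM and 6 genes under 1 TPM. Hsd17b12, Hsd17b10, Hsd17b4 and Hsd17b11 reached 1 TPM in both libraries, 4 of 10 members, where 53.5% of the 22015 nuclear protein-coding genes did. The family's sum was 191 TPM in animal 1 and 215 TPM in animal 2, or 203 ± 16.7 TPM (SD, n = 2). The 4 abundant genes held 98.1% and 98.6% of that sum. The remaining 6, which include the members best known for oestradiol and testosterone, summed to 3.64 and 3.04 TPM on 138 and 103 counts. Of the TPM on protein-coding genes of the nuclear genome, the family held 0.0603% in each library. Those coding genes took 31.7% of all TPM in animal 1 and 35.6% in animal 2. With TPM rescaled over them alone, 8 members passed 1 TPM in both libraries, where 60.6% of nuclear protein-coding genes did. By the second deposited table, this held for 6 members, against 57.3% of those genes, and the added members were Hsd17b1 (1.67 and 1.56 TPM) and Hsd17b14 (1.23 and 1.56 TPM). The count of members above that level therefore depends on the scale and the table.

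**Figure D1:**
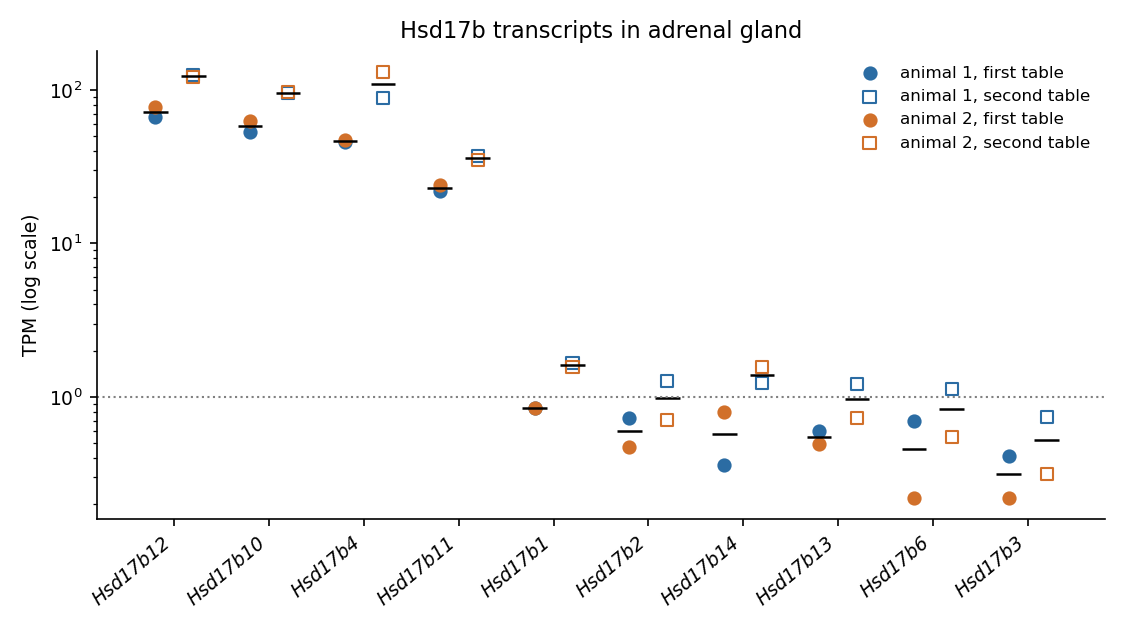
Level of each Hsd17b member (TPM, log axis) in animal 1 (blue) and animal 2 (orange), from the first deposited gene table (filled circles) and from the second deposited transcript table (open squares). Short lines are means of 2 libraries, the dotted line is 1 TPM, and a 27.0-fold step separates Hsd17b11 from Hsd17b1 in the first table.

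In order of mean TPM, both libraries of Hsd17b12 lay above both of Hsd17b10, with a ratio of means of 1.25. Hsd17b10 lay above Hsd17b4 by 1.24-fold and Hsd17b4 above Hsd17b11 by 2.04-fold, again with no overlap between libraries. The step from Hsd17b11 to Hsd17b1 was 27.0-fold, and Hsd17b1 stood 1.42-fold above Hsd17b2 without overlap. The step from Hsd17b1 to Hsd17b2 was 1.16-fold in animal 1 and 1.81-fold in animal 2. It rests on few counts, 37 and 35 against 31 and 19. From Hsd17b2 through Hsd17b14, Hsd17b13 and Hsd17b6 to Hsd17b3, each gene overlapped the next, so those neighbours did not differ beyond their spread. In the second table the mean of Hsd17b4 (110 TPM) was above that of Hsd17b10 (96.3 TPM), and the libraries of these 2 genes overlapped.

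Promoter sequence of 6 members was examined in the RefSeq promoter table (GRCm38.p6, the mm10 assembly). The promoter of Hsd17b4, the remaining abundant member, is not reported here. In the 250 bases before the RefSeq start, the 3 abundant members examined held 20 (Hsd17b12), 13 (Hsd17b11) and 12 (Hsd17b10) CpG dinucleotides. The 3 scarce members examined held 3 (Hsd17b13), 2 (Hsd17b3) and, at 2 starts of Hsd17b6, 1 and 0. The median of the 32851 promoters in the table was 6. The stretches shown are from 2 abundant and 2 scarce members, and include the neighbours Hsd17b11 and Hsd17b13. Each is the part of the window that lies outside the annotated gene, 5′ to 3′ on the minus strand, and the capitals mark CpG dinucleotides.
Hsd17b12 promoter, chr2:94157965-94158159: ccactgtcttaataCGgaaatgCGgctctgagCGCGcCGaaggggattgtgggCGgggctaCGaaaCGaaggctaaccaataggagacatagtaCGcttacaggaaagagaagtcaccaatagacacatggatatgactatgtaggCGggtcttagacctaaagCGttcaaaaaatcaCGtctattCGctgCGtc
Hsd17b11 promoter, chr5:104021920-104022046: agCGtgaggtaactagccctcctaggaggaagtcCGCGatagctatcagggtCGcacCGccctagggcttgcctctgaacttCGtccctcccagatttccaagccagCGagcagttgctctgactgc
Hsd17b13 promoter, chr5:103977411-103977638: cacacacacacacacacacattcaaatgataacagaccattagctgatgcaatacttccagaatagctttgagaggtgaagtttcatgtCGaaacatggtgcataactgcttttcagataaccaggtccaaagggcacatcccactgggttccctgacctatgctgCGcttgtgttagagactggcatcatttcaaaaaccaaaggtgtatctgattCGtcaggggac
Hsd17b3 promoter, chr13:64089231-64089451: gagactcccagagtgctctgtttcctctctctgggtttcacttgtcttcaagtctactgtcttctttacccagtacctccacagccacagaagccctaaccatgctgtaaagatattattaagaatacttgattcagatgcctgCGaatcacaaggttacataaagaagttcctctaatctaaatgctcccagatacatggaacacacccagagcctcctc

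These stretches hold 14, 7, 3 and 1 CpG dinucleotides in the order shown. Motifs were searched on both strands of the 250 bases. The GC box GGGCGG was in the windows of Hsd17b12, Hsd17b11 and Hsd17b10, and in 32.7% of all promoters. The letters CCAAT were in the same 3 windows and at both starts of Hsd17b6, and in 33.8% of all promoters. TATAAA, found in 12.4% of promoters, and AAGGTCA, a site bound by the cortex regulator Nr5a1 and found in 4.1%, were in no window examined.

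Hsd17b12 (ENSMUSG00000027195, chr2:94032689-94157964 on mm10, minus strand) encodes the ketoacyl-CoA reductase of fatty acid elongation in the endoplasmic reticulum. It had 66.7 TPM in animal 1 and 77.8 TPM in animal 2, on 4197 and 4620 counts, and was the most abundant member in both libraries of the first table. In animal 2 of the second table it had 121 TPM, below Hsd17b4 at 131 TPM. It ranked 799 among nuclear protein-coding genes, above 96.4% of them. The other steps of each elongation cycle are carried out by elongases (Elovl genes), dehydratases (Hacd genes) and the enoyl reductase Tecr. Among these 12 genes and itself, Hsd17b12 was placed 4, below Elovl5 at 348 ± 62.1 TPM, Tecr at 216 ± 49.3 TPM and Hacd3 at 107 ± 0.877 TPM (SD, n = 2). Elovl1, the next below, had 32.9 and 42.6 TPM. The lowest were Elovl2 at 0.54 and 0.4 TPM and Elovl4 at 0.43 and 0.28 TPM. The TPM of Hsd17b12 was 0.368 and 0.31 of that of Tecr and 0.62 and 0.732 of that of Hacd3. For scale, Hsd3b1, the cortical 3-beta-hydroxysteroid dehydrogenase, stood 55.4-fold and 59.4-fold above Hsd17b12.

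Hsd17b10 (ENSMUSG00000025260, chrX:152001845-152004442, plus strand) encodes a mitochondrial dehydrogenase of isoleucine breakdown that is also a subunit of mitochondrial RNase P, the enzyme that trims transfer RNAs. Its level was 53.0 TPM in animal 1 and 62.7 TPM in animal 2, on 1599 and 1788 counts. Of the isoleucine enzymes, Acadsb (225 ± 3.19 TPM), Echs1 (171 ± 22.3 TPM), Dld (93.2 ± 3.37 TPM), Bcat2 (77.6 ± 5.16 TPM) and Bckdha (67.2 ± 6.37 TPM, SD, n = 2) were higher. Its RNase P partners were much lower. Trmt10c, the methyltransferase subunit, had 7.29 and 7.75 TPM, and the nuclease gene, annotated as 1110008L16Rik and named Prorp in RefSeq, had 6.23 and 6.24 TPM. The TPM of Hsd17b10 was 7.27 and 8.09 times that of Trmt10c and 8.51 and 10.1 times that of the nuclease gene.

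Hsd17b4 (ENSMUSG00000024507, chr18:50128201-50196269, plus strand) encodes the D-bifunctional protein, which carries out the hydration and dehydrogenation steps of peroxisomal beta-oxidation. It had 46.0 TPM in animal 1 and 47.5 TPM in animal 2, on 4011 and 4036 counts. The pseudogene Cd63-ps, which overlaps it on the same strand, had 21.4 and 32.97 counts, and the Hsd17b4 transcripts share no stretch of 31 bases with another gene. Its mean was 46.8 ± 1.05 TPM (SD, n = 2). Within the pathway it was placed 4 of 17, and the genes above it included Ech1 (157 ± 33.6 TPM) and Scp2 (97.5 ± 7.75 TPM). The import receptor Pex5 followed at 33.8 ± 1.14 TPM, and the lowest were the thiolase Acaa1b at 5.64 and 3.33 TPM and Acox2 at 0.42 and 0.27 TPM. Ehhadh, the L-bifunctional enzyme that carries out the same steps on other substrates, had 8.76 and 10.7 TPM. The TPM of Hsd17b4 was 5.26 and 4.45 times that of Ehhadh, and 6.13 and 8.37 times in the second table, so the order of the animals turned.

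Hsd17b11 (ENSMUSG00000029311, chr5:103989762-104021919, minus strand) encodes a lipid droplet protein. It had 22.0 TPM in animal 1 and 23.9 TPM in animal 2, on 1332 and 1367 counts. Among lipid droplet genes it was placed 13 of 17. The triglyceride lipase Pnpla2 (196 and 314 TPM), the perilipins Plin1 (162 and 196 TPM) and Plin2 (122 and 161 TPM), and Cidea (99.6 and 169 TPM) led that list. The lowest were Fitm1 at 0.85 and 0.52 TPM and Cideb at 0.46 and 0.6 TPM. Adipocyte markers, which include Plin1, and brown adipocyte markers, which include Cidea, had the sums given above, and their part in the levels of this list was not tested. Hsd17b13, also a lipid droplet protein and best known from liver, lies 12351 bases from Hsd17b11 on the same strand (ENSMUSG00000034528, chr5:103955440-103977410). It had 0.6 TPM in animal 1 and 0.49 TPM in animal 2, on 23 and 19 counts, and was placed 16 of 17. The TPM of Hsd17b11 was 36.7 and 48.8 times that of its neighbour, and 30.7 and 48.1 times in the second table.

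**Figure D2:**
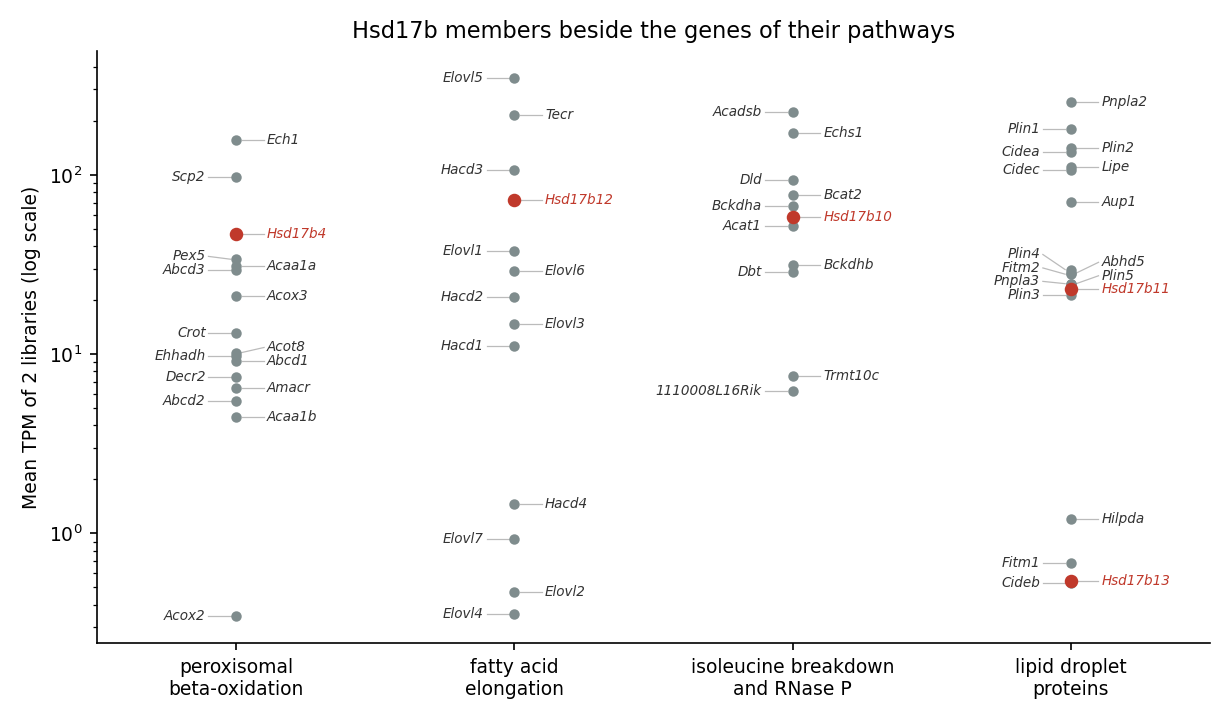
Mean TPM of 2 libraries (log axis) of the abundant Hsd17b members and Hsd17b13 (red) and of genes listed for their pathway or compartment (grey), of which 1 is not shown. Hsd17b4 and Hsd17b12 are each placed 4 in their pathway, Hsd17b10 is placed 6 of 11, and Hsd17b11 and Hsd17b13 are placed 13 and 16 of 17 among lipid droplet genes.

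The members best known for oestradiol and testosterone were scarce. Hsd17b1 (ENSMUSG00000019301, chr11:101078411-101080527, plus strand), which reduces oestrone to oestradiol and is known from ovarian granulosa cells, had 0.85 TPM in both animals on 37 and 35 counts. The granulosa markers Fshr and Cyp19a1 had 0 counts in both libraries. Amh had 18 and 17 counts (0.33 TPM in each) and Foxl2 had 3 and 7 counts, while Inha, which the adrenal also expresses, held most of the list's 5.49 and 5.59 TPM. Hsd17b3 (ENSMUSG00000033122, chr13:64058266-64089230, minus strand), the testicular enzyme that makes testosterone, had 0.41 and 0.22 TPM on 8 and 4 counts. It was the only member with a mean under 10 counts and was left out of the ratios between animals. Of 3 Leydig-type markers, summing to 1.87 and 3.23 TPM, Insl3 had 1.53 and 2.6 TPM on 28.1 and 45 counts. The second table gave Insl3 0.98 and 5.11 TPM. Lhcgr had 4 and 1 counts, and Cyp17a1 had 19 and 33.

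Hsd17b2 (ENSMUSG00000031844, chr8:117701904-117759027, plus strand), which oxidises oestradiol and testosterone to weaker forms, had 0.73 TPM in animal 1 and 0.47 TPM in animal 2, on 31 and 19 counts. Hsd17b14 (ENSMUSG00000030825, chr7:45554893-45567752, plus strand), an oxidising member, had 0.36 and 0.79 TPM on 12 and 16 counts. Hsd17b6 (ENSMUSG00000025396, chr10:127990936-128007611, minus strand), a retinol dehydrogenase-like enzyme that oxidises androgen metabolites, had 0.69 TPM in animal 1 and 0.22 TPM in animal 2, on 27.3 and 9.8 counts. The deposited intervals of TPM, which come with no stated level, did not hold the deposited TPM in 2 of 20 cases. One was Hsd17b14 in animal 1, where 0.36 TPM lay under an interval of 0.475 to 1.91, and the other Hsd17b6 in animal 2, where 0.22 TPM lay under 0.258 to 0.979.

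Hsd17b6 was also the only member with expected counts that were not whole to within 0.005, which is how reads shared between genes appear in such tables. Its transcript Hsd17b6-201 shares 218 of its 1362 stretches of 31 bases (16.01%) with retinol dehydrogenase genes, and no member shares one with another member. The longest shared run, 248 coding bases in 1 exon at chr10:127997706-127997953 (mm10, minus strand), is identical in Rdh1 and Rdh16f1. It is printed because reads inside it cannot be assigned to 1 gene by sequence, and the capitals mark the 71 bases that Rdh7, Rdh9, Rdh16 and Rdh19 hold as well.
Hsd17b6-201 shared run: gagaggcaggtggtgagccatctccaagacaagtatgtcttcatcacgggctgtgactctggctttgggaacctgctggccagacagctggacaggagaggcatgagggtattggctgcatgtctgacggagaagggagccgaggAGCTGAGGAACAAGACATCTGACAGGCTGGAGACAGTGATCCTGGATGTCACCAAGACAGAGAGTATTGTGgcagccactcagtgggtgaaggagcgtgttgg

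The level of Hsd17b6 is uncertain to that extent. Its stretches are shared with 8 genes. Rdh16f1, with 129 and 87.2 counts, and Rdh1, with 84.1 and 66.9, hold the whole run and were above Hsd17b6. Rdh7, with 72.1 and 37.0 counts, and Rdh16, with 33.2 and 47.0, were also above it. Rdh16f2 (20 and 3 counts), Rdh19 (1.28 and 0) and Rdh18-ps (0.88 and 0.46) were below it in both animals. Rdh9 had 0 counts in animal 1 and 13.6 in animal 2, below and above Hsd17b6. The second table gave Hsd17b6 1.12 and 0.548 TPM, also higher in animal 1.

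Between the libraries the abundant members were close. After scaling by trimmed means, Hsd17b12 was 1.09-fold higher in animal 2 (95% counting interval 1.04 to 1.14) and Hsd17b10 1.11-fold higher (1.03 to 1.18). The ratio of animal 2 to animal 1 was 1.0 for Hsd17b4 (0.953 to 1.04) and 1.02 for Hsd17b11 (0.941 to 1.10). These intervals cover counting error only. Of 9 members with a mean of 10 counts, 2 were over 1.5-fold apart, where 14.3% of the 17308 genes tested were. These were Hsd17b6, 2.73-fold higher in animal 1 (1.28 to 6.32), and Hsd17b2, 1.63-fold higher in animal 1 (0.903 to 3.09). Which members these were depended on the scaling. With ERCC spike-ins and with the deposited TPM, Hsd17b2 came to a log2 ratio of -0.50 and -0.54, under 1.5-fold. Hsd17b14 was then over 1.5-fold higher in animal 2, at 0.59 and 0.95, against 0.38 with trimmed means and -0.22 in the second table. Hsd17b6 was over 1.5-fold higher in animal 1 under each of these scalings and in the second table. Among genes with 10 to 40 mean counts, the range of the scarce members, 41.1% were that far apart. The interval, from first-table counts, left out 1 for 3 of 9 members (Hsd17b12, Hsd17b10 and Hsd17b6), against 45.0% of genes tested. Higher in animal 2 were 4 of 9, against 47.8%, and the median log2 ratio was -0.01 for the members and -0.02 for all genes. No interval was taken for the second table. There the log2 ratio was 0.05 for Hsd17b12 (0.12 in the first), 0.17 for Hsd17b10 (0.15) and -0.79 for Hsd17b6 (-1.45).

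**Figure D3:**
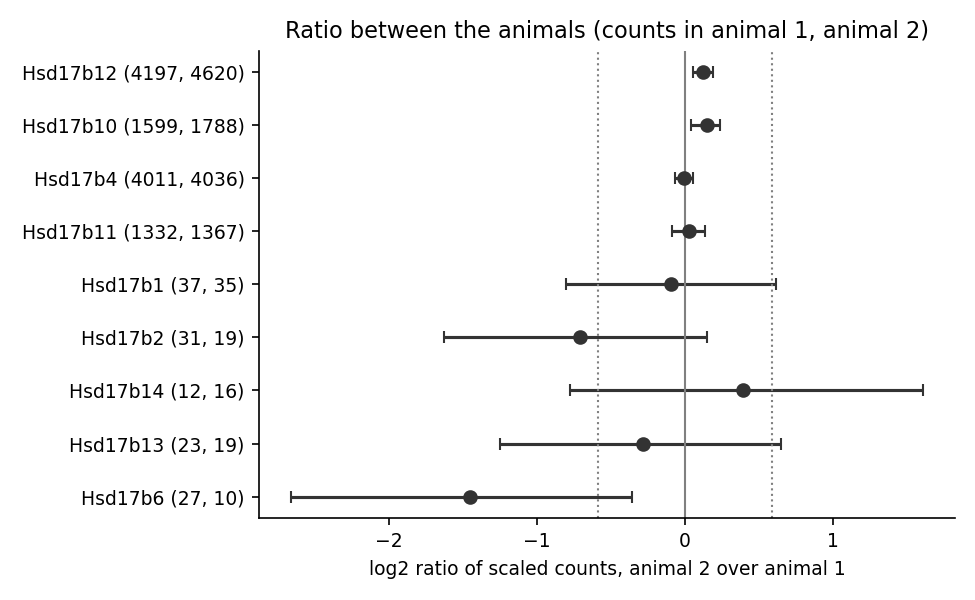
Log2 ratio of scaled counts, animal 2 over animal 1, for the 9 Hsd17b members averaging 10 or more counts; bars are 95% counting intervals, dotted lines mark 1.5-fold, and counts in animal 1 and animal 2 follow each name. Hsd17b6 and Hsd17b2 lie past 1.5-fold, and the interval of Hsd17b2 spans 0.

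The 5 members that were lower in animal 2 by scaled counts were Hsd17b6 and Hsd17b2, Hsd17b13 with a ratio of animal 2 to animal 1 of 0.821 (0.421 to 1.57), Hsd17b1 with 0.936 (0.572 to 1.53) and Hsd17b4. Of these intervals, only that of Hsd17b6 left out 1. Hsd17b14, also scarce, went the other way, with a ratio of 1.31 (0.585 to 3.05). Hsd17b2, Hsd17b6 and Hsd17b13 are known from liver. All 7 liver markers were higher in animal 1 (median log2 ratio -0.92), and Alb had 120 and 80.6 TPM. Of 6 kidney tubule markers, 5 had 0 counts in animal 2 and none had 0 counts in animal 1. The part of these tissues in the levels of the scarce members was not tested.

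The transcripts of the members were estimated in both deposited transcript tables, and 7 of 10 members had the same leading transcript in each. Of 40 annotated transcripts, 23 had counts in the first table, 29 in the second and 9 in neither. The 29 include Hsd17b6-202 and Hsd17b6-203, whose estimates in the second table were at most 0.000211 counts. Hsd17b11-201 held 99.55% and 99.03% of its gene's TPM in the first table and 99.3% and 98.9% in the second. Hsd17b1-201 and Hsd17b2-201 held 100% in every case. Hsd17b12-201 held 99.74% and 99.58% in the first table and 89.4% and 79.5% in the second. There Hsd17b12-205, a noncoding transcript of 668 bases, took 10.3% and 11.8%. Hsd17b12-202, also noncoding, took 0% and 8.24% there, on 0 counts in animal 1 and 405 in animal 2. Only 1.7% of the 31-base stretches of Hsd17b12-202 are absent from Hsd17b12-201.

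Hsd17b10 and Hsd17b4 were divided differently by the tables. Hsd17b10-201, the coding transcript, held 98.13% and 96.87% of the gene's TPM in the first table but 51.1% and 66.9% in the second. The difference lay in Hsd17b10-204, a noncoding transcript of 1001 bases that starts in the first intron of Hsd17b10-201, at 0.96% and 2.19% against 48.7% and 32.7%. Only 13.1% of the 31-base stretches of Hsd17b10-204 are absent from Hsd17b10-201. For Hsd17b4, the short noncoding Hsd17b4-203 and Hsd17b4-204 together took 17.8% of the second table's TPM in animal 1 and 53.5% in animal 2. They held 1.41% and 7.04% of the gene's counts, since TPM divides by length and they have 536 and 394 bases. The gene's TPM in that table was 89.0 and 131, while its coding transcript Hsd17b4-201 alone had 73.2 and 60.6 TPM.

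**Figure D4:**
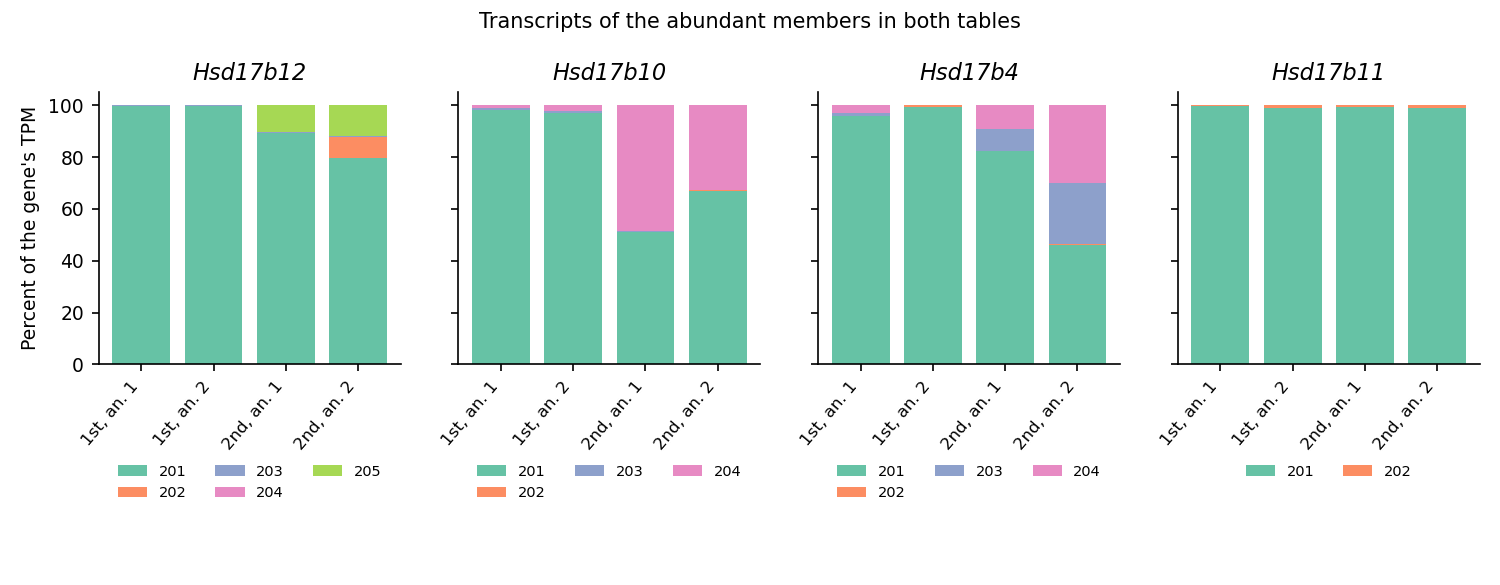
Percent of each abundant Hsd17b gene's TPM held by each annotated transcript, for animals 1 and 2 (an. 1, an. 2) in the first (1st) and second (2nd) deposited transcript tables. The share of transcript 201 stays near 99% for Hsd17b11, and falls in the second table to 51.1% for Hsd17b10 in animal 1 and 46.1% for Hsd17b4 in animal 2.

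Among the scarce members the transcripts rest on few counts. For Hsd17b13, Hsd17b13-203 led in animal 1 with 59.18% and Hsd17b13-202 in animal 2 with 77.42%, on 12.6 and 15.3 counts. Hsd17b14-206, annotated as a target of nonsense-mediated decay, held 76.13% and 35.22% of the TPM of Hsd17b14 in the first table. In the second table it held 50.3% and 30.9%, and the noncoding Hsd17b14-204 held 29.0% and 69.1%. The coding Hsd17b14-201 had 0 counts in both tables and libraries. Hsd17b14-205, also annotated as coding, had 2.97 counts in animal 1 of the second table and 0 elsewhere. All counts of Hsd17b3 in the first table fell on Hsd17b3-203, which has 4 exons, while the second table put 80.4% and 71.2% of its TPM on Hsd17b3-201 with 12 exons.

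Several genes with related activity outside the 10 members were abundant. Of 11 relatives, 9 reached 1 TPM in both libraries. Akr1c18, the 20-alpha-hydroxysteroid dehydrogenase that marks the X zone of the female mouse cortex, led with 2320 and 1659 TPM and was 1.5-fold higher in animal 1. H2-Ke6, known also as Hsd17b8, had 82.0 and 87.2 TPM, Dhrs7 a mean of 71.4 ± 5.06 TPM (SD, n = 2), and Hsd17b7, an enzyme of cholesterol synthesis, 53.0 and 43.6 TPM. Hsd17b7 was 1.62-fold higher in animal 1 by scaled counts. Akr1c6, which has 17-beta-hydroxysteroid dehydrogenase activity in mouse, had 1.21 and 0.68 TPM, and Akr1c14 1.02 and 0.83 TPM. Animal 1 had the higher value for 7 of the 11, 3 of them over 1.5-fold. The median log2 ratio of animal 2 to animal 1 was -0.31. Over all genes tested, 47.8% were higher in animal 2, 14.3% were over 1.5-fold apart, and the median was -0.02.

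Genes around sex steroid supply and response were present at both ends of the range. Hsd3b1 led with 3691 and 4620 TPM, followed by Cyb5a (168 and 214 TPM) and the 5-alpha-reductase Srd5a2 (50.8 and 45.9 TPM). Cyp17a1, which supplies the androgen substrates of Hsd17b3, had 0.32 and 0.58 TPM on 19 and 33 counts. Cyp19a1, the aromatase that supplies oestrogens, had 0 counts in both libraries, and the oestrogen receptor Esr2 had 1 count in each. Of 10 genes with a mean of 10 counts, 6 were higher in animal 2, against 47.8% of all genes tested. Over 1.5-fold apart was 1, higher in animal 2, against 14.3%. Their median log2 ratio was 0.11, against -0.02.

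The pathway lists of the abundant members were split between the animals. Of all genes tested, 47.8% were higher in animal 2, 14.3% were over 1.5-fold apart, and the median log2 ratio was -0.02. For peroxisomal beta-oxidation, 6 of 16 genes were higher in animal 2 (median log2 ratio -0.08), and Acaa1b and Acox2 were 1.88-fold and 1.76-fold higher in animal 1. The split depended on the scaling, with 12 of 16 under ERCC spike-ins and 10 of 16 by deposited TPM. For elongation, 7 of 12 were higher in animal 2, with a median of 0.1. Elovl3, a brown fat elongase, was 2.22-fold higher in animal 2, and Elovl4 was 1.7-fold higher in animal 1. Animal 2 had the higher value for 5 of 5 brown adipocyte markers, of which Elovl3 and Cidea are themselves a part. For isoleucine breakdown and RNase P the split was 5 and 5, with no gene over 1.5-fold. There 9 were higher in animal 2 under ERCC spike-ins, 8 by deposited TPM and 3 in the second table. For lipid droplet proteins, 12 of 16 were higher in animal 2, with a median of 0.18. Cidea was 1.58-fold higher there, while Hilpda was 1.81-fold, Fitm1 1.73-fold and Plin5 1.49-fold higher in animal 1. The part of brown adipocytes in these values was not tested. For the retinol-type dehydrogenases, 3 of 8 were higher in animal 2, with a median of -0.16, and Dhrs9 was 1.75-fold higher there. Rdh7 was 1.96-fold and Rdh16f2 5.92-fold higher in animal 1, the latter on 20 and 3 counts. Of these 10 kin of Hsd17b6, 2 reached 1 TPM in both libraries, Bdh1 (10.7 and 7.54 TPM) and Rdh5 (3.41 and 3.89 TPM). The lowest were Rdh9, listed at 0 in animal 1, and Rdh19, listed at 0 in animal 2.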

How the data were processed

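Total RNA-seq of adrenal gland was analysed in 2 libraries of 1 group. Per the text files deposited beside them, all tables used mm10 and GENCODE M21. The sources used here name no aligner, version or setting. The first gene and transcript tables have the column names of RSEM per the file headers, and the second transcript table those of kallisto. Expected counts, as the authors deposited them, are estimates and need not be whole. The deposited TPM values divide by length and sum over all rows, spike-ins included. Transcript shares are the percent values the authors deposited. The deposited bounds of a TPM interval were used as a signal with no stated level. The libraries are stranded per the labels' protocols.

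Symbols were matched by gene identifier. Expected counts were rounded for scaling and intervals. Scaling used trimmed means of M-values in edgeR 4.0.16, with factors of 1.02 and 0.9806, on annotated genes only. Log2 ratios were taken for genes averaging 10 counts, after adding a prior of 0.5. The 95% counting intervals are exact (Clopper-Pearson). DESeq2 1.42.0 size factors, ERCC spike-in scaling and the second table were alternatives. The scaling was tested on simulated counts, and only on genes with means above those of the scarce members. Transcripts were compared by stretches of 31 bases on GENCODE M21 sequences, and promoters came from RefSeq (GRCm38.p6). Reads of CAST/EiJ alleles were counted by the authors against mm10, and the effect on levels was not tested.

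Genes named were all 10 members and, of each of 7 lists, the 4 highest and 2 lowest by TPM and any over 1.5-fold apart with 100 mean counts; a few further list genes were named after their values were seen. Some list genes are counted but not reported here by name. Members and lists were chosen with earlier results of these data known.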

Additional observations from a re-analysis of the deposited data

How the results depend on the processing

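With 2 libraries of 1 group, no test or condition effect could be had, and precision for the 6 scarce members was limited by counts of 4 to 37. The number of members at 1 TPM in both libraries was 4, against 10 with any count, 8 over nuclear protein-coding genes, 6 in the second table and 5 at a level of 0.5 TPM. The family share of 0.0603% was 0.0627% in the second table and 0.0506% by expected counts. Ranks changed for 4 members in the second quantification, and leaving out 1 library changed 3 to 5 ranks, all among the scarce members. The 2 members over 1.5-fold apart became 0 for TPM ratios with a pseudocount of 1, an alternative chosen after seeing the data, as was a level of 10 TPM, which left 4 members. A pseudocount pulls ratios of low values towards 1 by its construction. They were 3 with no minimum of counts, which adds Hsd17b3, and 2 elsewhere, but ERCC scaling and deposited TPM put Hsd17b14 in place of Hsd17b2. Scaling by ERCC spike-ins raised all log2 ratios by a median of 0.20, to 0.33 for Hsd17b12, 0.35 for Hsd17b10, 0.20 for Hsd17b4 and 0.23 for Hsd17b11, and the deposited TPM raised them by 0.10. Members higher in animal 2 went from 4 to 6 under ERCC and to 5 by DESeq2 size factors and by TPM. Under ERCC, list genes higher in animal 2 went from 6 to 12 for peroxisomal beta-oxidation, from 5 to 9 for isoleucine breakdown and RNase P, from 7 to 10 for elongation and from 3 to 5 for the retinol-type dehydrogenases. By TPM the first and second of these were 10 and 8, and the second table gave 3 for isoleucine breakdown and RNase P. The cause was not tested. No paired analysis was possible because there is 1 group.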
